A study of Caenorhabditis elegans with 16 samples.

Results

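The cytochrome P450 genes of Caenorhabditis elegans were taken as every gene of the RNA polymerase tables whose name begins with cyp-, which gave 74 of 19974 named genes. The rule reads the name and no measured value. They fall into 25 subfamilies by the number and letter of their names, and 13 subfamilies have a single member. The largest are cyp-13A and cyp-33C, with 11 members each, and cyp-34A, with 8. All 74 are annotated as protein coding on the assembly WBcel235: 41 lie on chromosome V, 12 on II, 7 on IV, 7 on X, 6 on III and 1 on I.

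Cytochrome P450s are heme enzymes that use molecular oxygen and electrons from a reductase to oxidise lipophilic substrates. In worms, as in mammals, they act on foreign compounds, fatty acids and sterols, and the intestine is regarded as a main site of detoxification. Many are induced by chemicals, so a gene with little polymerase in unchallenged animals may still be inducible.

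RNA polymerase was profiled by RAPID, a form of DamID. The bacterial methylase Dam is attached to RPB-6, a subunit shared by the RNA polymerases, and GATC sites near the fusion become methylated in living cells. Free GFP::Dam, which marks accessible chromatin, serves as the reference. The score of a gene is log2(Dam::RPB-6/GFP::Dam), so a score above 0 means more signal from the polymerase fusion than from the reference.

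The 4 groups were hypodermis and intestine of wild-type L4 larvae and of baf-1(G12T) L4 larvae. The mutants carry baf-1(bq19[G12T]) on chromosome III, a substitution in the chromatin protein BAF-1 made to model a premature ageing syndrome. The Dam::RPB-6 strains were BN1414 (wild-type hypodermis), BN1415 (wild-type intestine), BN1416 (mutant hypodermis) and BN1417 (mutant intestine). The matching GFP::Dam strains were BN561, BN1051, BN1048 and BN1053. Every strain, controls included, carried a single-copy Dam transgene on chromosome II under the hsp16.41 heat shock promoter, interrupted by an FRT-flanked mCherry::HIS-58 cassette. FLP recombinase removed the cassette, driven by dpy-7p in hypodermis and by nhx-2p in intestine, so a tissue here means the cells in which that promoter was active at some time. Animals were fed a dam- E. coli strain, and each library came from a population of 4000 larvae grown for 48 h at 20 °C.

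Each group had 2 Dam::RPB-6 and 2 GFP::Dam libraries, 16 in all, but the deposited tables hold a single combined score and false discovery rate (FDR) per gene and group. No spread between replicates, and no test of a difference, can therefore be given for any value below. Differences between groups describe the deposited scores only. The tables carry no read counts. The 2 Dam::RPB-6 libraries of mutant hypodermis were the pair of the series that differed most in reads kept at GATC sites. Within the labelled cells of a tissue, fewer cells with polymerase on a gene and less polymerase per cell cannot be told apart.

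Markers of the labelled tissues were only partly detected. Of 10 hypodermal marker genes, 6 and 5 were called expressed in hypodermis (wild type and mutant) and 3 and 1 in intestine. Of 10 intestinal markers, 0, 0, 3 and 6 were called in the same order. The cuticle collagen gene dpy-7, whose promoter drove FLP in hypodermis, was called in no group, and neither was elt-2, which encodes the main GATA factor of the gut. dpy-7 has only 3 fragments between GATC sites, and genes with few of these were called less often. nhx-2, whose promoter drove FLP in intestine, was called in mutant intestine alone (FDR = 0.0327). Sets of 3 markers each for muscle, neurons and germ line gave 1 call in mutant intestine (muscle), 1 in wild-type hypodermis (neurons) and 0 (germ line).

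P450 genes were called expressed more often in hypodermis than in intestine. Following the authors, a gene was called expressed where its FDR was under 0.05. Of the 74 P450 genes, 10 (13.5%) passed it in hypodermis of wild type, beside 9.81% of all named genes. In mutant hypodermis 5 were called (6.76%), beside 7.53% of all genes. In wild-type intestine 1 was called (1.35%), beside 7.94%. In mutant intestine 1 was called (1.35%), beside 10.5%. The hypodermal shares were thus near those of the whole genome, whereas both intestinal shares were below them. The contrast in the mutant depended on the threshold. At an FDR under 0.1, 7 P450 genes (9.46%) were called in mutant intestine and 8 (10.8%) in mutant hypodermis, beside 15.1% and 9.56% of all genes. In wild type the counts at 0.1 were 2 (2.70%) in intestine and 13 (17.6%) in hypodermis, beside 11.8% and 12.2%. Altogether 15 P450 genes (20.3%) were called in at least 1 group, beside 23.9% of all genes, and 59 in none.

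Among the 15 called genes, 8 were called in wild-type hypodermis alone and 2, cyp-32A1 and cyp-43A1, in hypodermis of both genotypes. A further 3 were called in mutant hypodermis alone: cyp-33C2, cyp-34A6 and cyp-34A8. cyp-14A2 was called in wild-type intestine alone and cyp-35C1 in mutant intestine alone. No P450 gene was called in both tissues of a genotype. Over the whole table the calls shared between tissues were 30.9% of the intestinal calls in wild type and 20.4% in the mutant, and the calls shared between genotypes in intestine were 43.5% of the wild-type ones, so with 1 intestinal call in each genotype an overlap of 0 says little.  The 2 P450 genes shared between the hypodermis groups are 20.0% of the wild-type and 40.0% of the mutant calls, beside 705 of 1960 wild-type calls and 46.9% of the mutant calls over all genes.

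**Figure D1:**
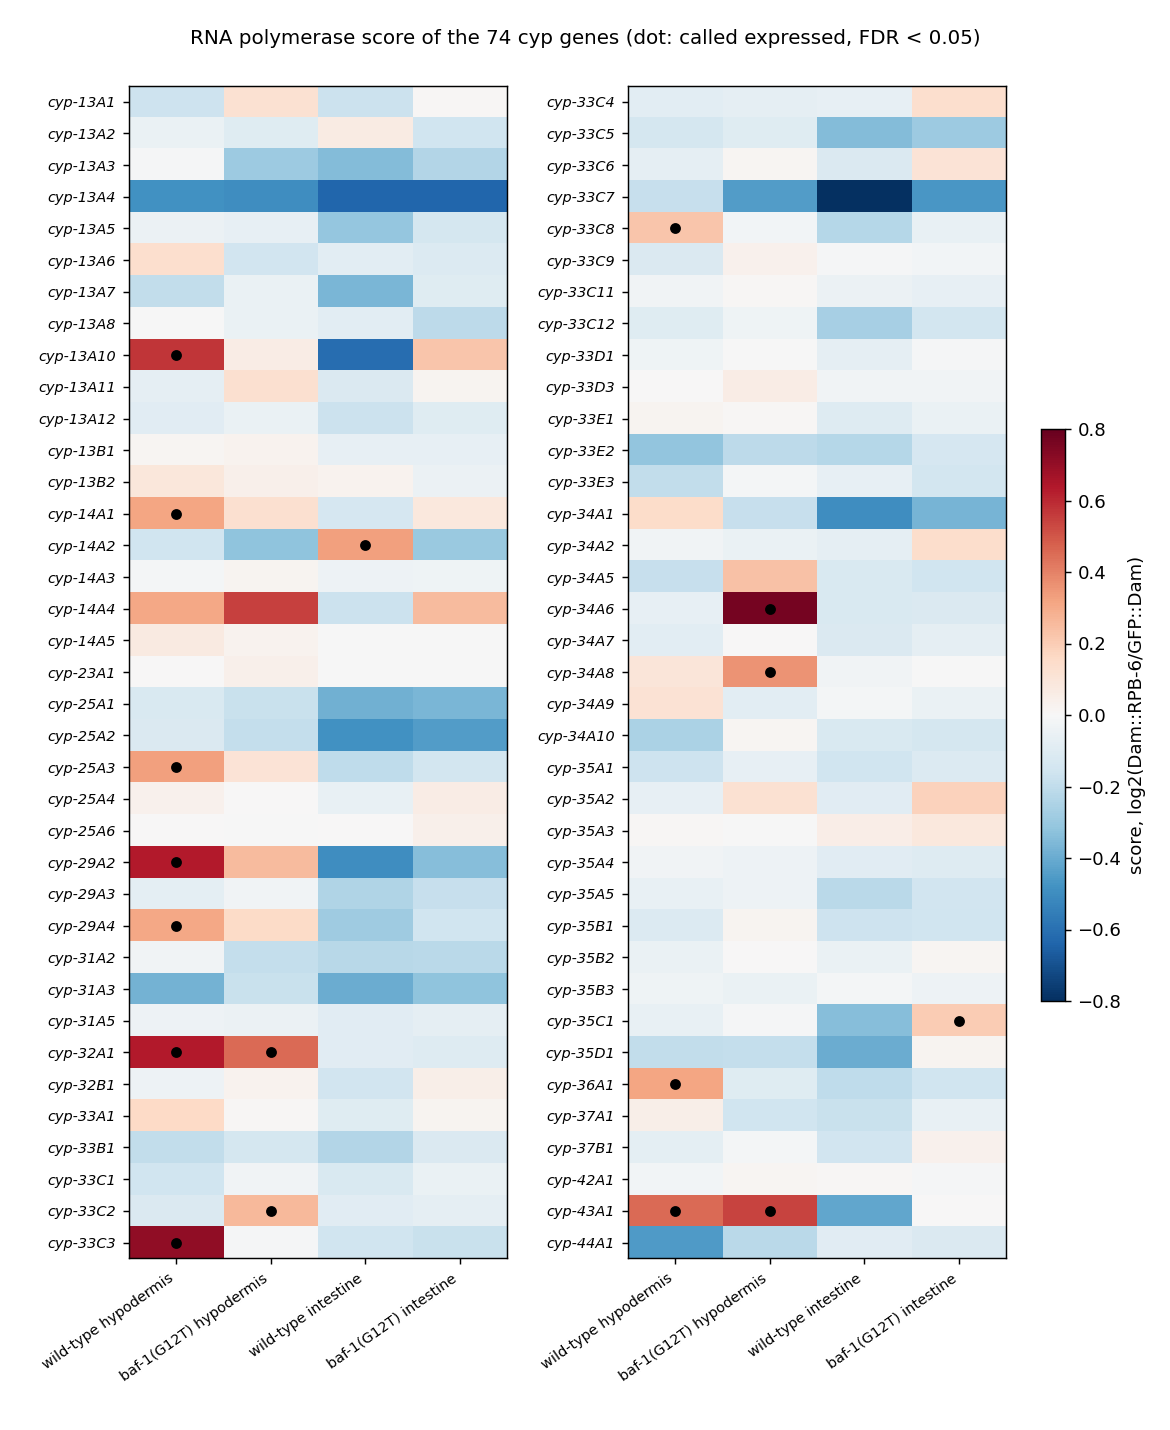
Score of each of the 74 P450 genes (rows, in order of name) in the 4 groups (columns), on a colour scale of log2(Dam::RPB-6/GFP::Dam) from -0.8 to 0.8. Black dots mark genes called expressed at an FDR under 0.05: 10 in wild-type hypodermis, 5 in mutant hypodermis and 1 in each intestinal group.

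Most P450 genes sat close to 0 in every group. Their scores ran from -0.48 to 0.71 (median -0.04) in hypodermis of wild type, from -0.49 to 0.76 in mutant hypodermis (median -0.01), from -0.80 to 0.33 in wild-type intestine (median -0.12) and from -0.63 to 0.26 in mutant intestine (median -0.07). The medians over all named genes were -0.04, -0.02, -0.07 and -0.02. Only 6 P450 genes had a score above 0 in wild-type intestine, against 26 in wild-type hypodermis, 33 in mutant hypodermis and 19 in mutant intestine. The median P450 gene lay at percentile 48.6 and 53.0 of all genes in wild-type and mutant hypodermis, and at 36.6 and 32.3 in the corresponding intestines. The lowest 10% of all genes held 13 P450 genes in wild-type intestine and 11 in mutant intestine, against 5 and 4 in hypodermis.

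The P450 gene with the highest wild-type hypodermal score was cyp-33C3 (chrV:2242778-2244865). It scored 0.71 in wild-type hypodermis (FDR = 4.47e-06), -0.01 in mutant hypodermis, -0.16 in wild-type intestine and -0.18 in mutant intestine. Polymerase was thus above the reference in 1 of the 4 groups, and the wild-type score placed it at rank 350 of all genes. The mutant hypodermal score was lower by 0.72, the largest fall of any P450 gene between genotypes in that tissue. The call rests on 13 GATC fragments, the pieces between neighbouring GATC sites.

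cyp-29A2 (chrV:11217583-11219911) scored 0.63 in wild-type hypodermis (FDR = 0.000804), 0.26 in mutant hypodermis (FDR = 0.0708), -0.50 in wild-type intestine and -0.34 in mutant intestine. Both hypodermal scores lay above both intestinal ones. The neighbouring gene T19B10.2, 1390 bp away, followed the same order, with 0.74, 0.42, -0.32 and -0.29. T19B10.2 was called in both hypodermis groups, whereas cyp-29A2 was called in that of wild type only. What the polymerase of T19B10.2 adds to the score of cyp-29A2 was not tested.

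The related gene cyp-29A4 scored 0.31 in wild-type hypodermis (FDR = 0.00741), 0.15 in mutant hypodermis, -0.29 in wild-type intestine and -0.16 in mutant intestine. The third member of the subfamily, cyp-29A3, known for the conversion of polyunsaturated fatty acids to eicosanoids, was not called and scored -0.08, -0.03, -0.24 and -0.19. All 3 genes were lower in intestine than in hypodermis in both genotypes, with a median difference of -0.60 in wild type and -0.31 in the mutant.

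cyp-32A1 (chrV:7781811-7784594) and cyp-43A1 (chrX:5714522-5717562) were the P450 genes called in hypodermis of both genotypes. cyp-32A1 scored 0.63 (FDR = 0.000422) in wild-type and 0.46 (FDR = 0.0149) in mutant hypodermis, and -0.09 and -0.10 in the intestines. cyp-43A1 scored 0.45 (FDR = 0.0012) and 0.54 (FDR = 0.00412) in hypodermis, and -0.42 and 0.01 in wild-type and mutant intestine. For both genes the hypodermal scores lay above the intestinal ones in each genotype. cyp-43A1 overlaps the gene C41G11.1, and DamID does not tell strands apart, so polymerase on the overlap cannot be assigned. C41G11.1 itself scored between -0.14 and 0.05 and was not called.

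cyp-13A10 (chrII:9660839-9662884) scored 0.57 in wild-type hypodermis (FDR = 0.00476), 0.06 in mutant hypodermis, -0.61 in wild-type intestine and 0.22 in mutant intestine (FDR = 0.0577). Its wild-type difference between tissues, -1.18, was the largest of the 74 genes. In the mutant the order was the other way round, with intestine higher by 0.16. Its scores rest on only 5 GATC fragments. The genes on either side, ZK1320.3 and ZK1320.5, scored between -0.17 and 0.13 in all groups and were called in none.

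The other genes called in wild-type hypodermis alone were cyp-25A3, cyp-14A1, cyp-33C8 and cyp-36A1. cyp-25A3 scored 0.33 (FDR = 0.0212), with 0.11, -0.20 and -0.15 in mutant hypodermis, wild-type intestine and mutant intestine. cyp-14A1 scored 0.31 (FDR = 0.0134), then 0.13, -0.14 and 0.09. cyp-33C8 scored 0.22 (FDR = 0.0194), then -0.02, -0.23 and -0.06. Each of these 3 was highest in wild-type hypodermis and lowest in wild-type intestine. cyp-36A1, which in worms acts downstream of the hypoxia factor HIF-1, scored 0.32 (FDR = 0.000785), then -0.10, -0.20 and -0.16, over 17 fragments. It overlaps figo-1, which scored -0.10 in wild-type hypodermis and was not called in any group.

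The calls of mutant hypodermis outside these genes fell in 2 places on chromosome V. cyp-34A6 (chrV:3958160-3961335) scored -0.06 in wild-type hypodermis, 0.76 in mutant hypodermis (FDR = 0.000556), -0.12 in wild-type intestine and -0.12 in mutant intestine. Its mutant hypodermal score was the highest of any P450 gene in any group. cyp-34A8, 2 genes further along the same array, scored 0.10, 0.36 (FDR = 0.0248), -0.03 and -0.00. cyp-33C2 scored -0.12, 0.26 (FDR = 0.0437), -0.09 and -0.07. None of these 3 was called in another group.

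Each intestinal group had a single call. cyp-14A2 (chrX:13267562-13269686) scored -0.16 in wild-type hypodermis, -0.32 in mutant hypodermis, 0.33 in wild-type intestine (FDR = 0.0131) and -0.30 in mutant intestine. It was the P450 gene with the highest wild-type intestinal score and stood at rank 734 of all genes there. cyp-35C1 (chrV:13896663-13898487) scored -0.06, -0.01, -0.34 and 0.20 in the same order, with an FDR of 0.0397 in mutant intestine. The neighbouring gene sptl-3, 247 bp away, scored 0.31, -0.39, -1.03 and 0.04, so cyp-35C1 lay beside a gene that was also lower in wild-type than in mutant intestine.

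The number of GATC fragments limits which genes can be called. P450 genes have 2 to 20 fragments, with a median of 8, beside 7 for all genes. None of the 7 P450 genes with 4 or fewer fragments was called, against 7 of 35 with 5 to 8, 6 of 26 with 9 to 12 and 2 of 6 with 13 or more. Over all genes the share called in wild-type hypodermis rose from 4.06% to 8.55%, 10.9% and 16.8% through the same classes. cyp-14A4, with 2 fragments, scored 0.31, 0.55, -0.17 and 0.26 and was not called in any group (FDR = 0.0588 in mutant hypodermis). Its score in mutant hypodermis was above those of 4 of the 5 genes called there, and its score in mutant intestine above that of cyp-35C1, called with 8 fragments.

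**Figure D2:**
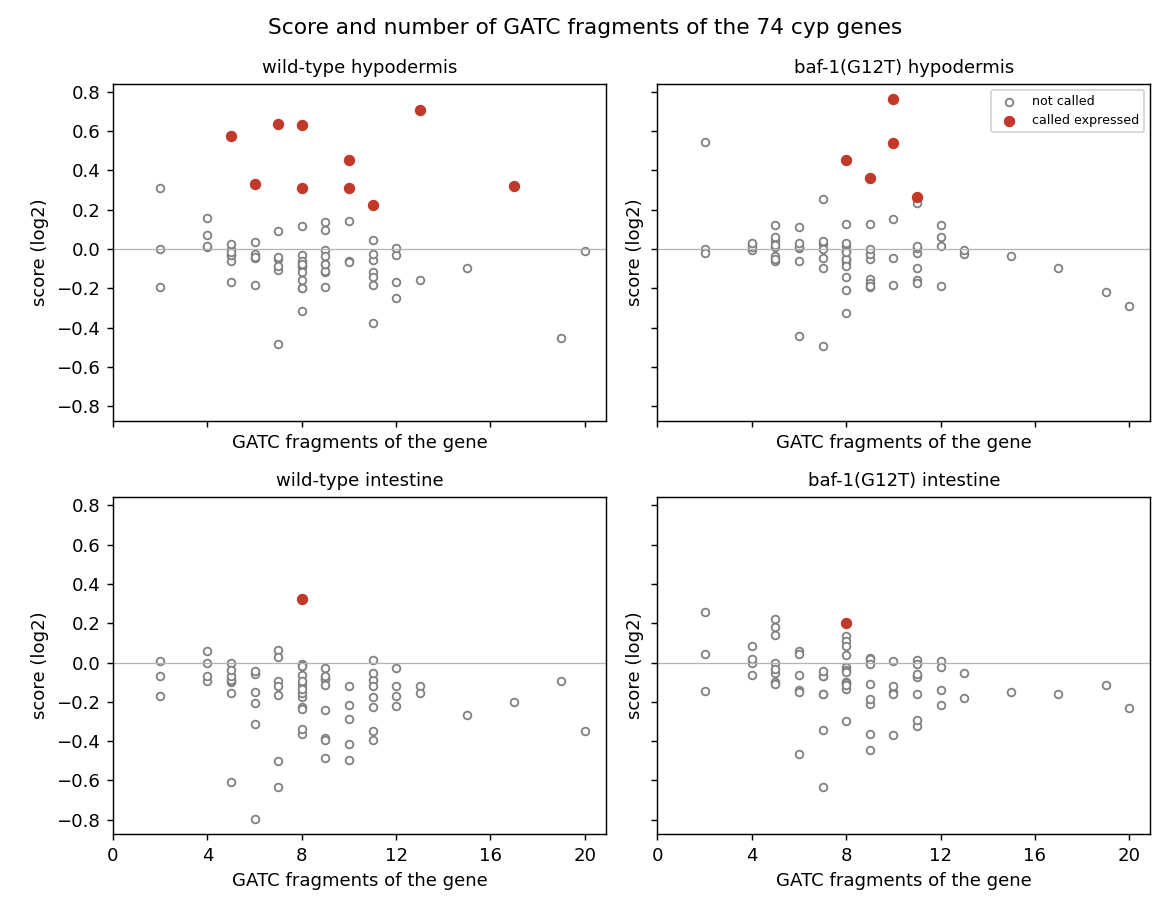
Score (vertical axis, log2) against the number of GATC fragments of each P450 gene (horizontal axis), with 1 panel for each group; filled points were called expressed. Every called gene has at least 5 fragments, and the uncalled gene with 2 fragments and a score of 0.55 in mutant hypodermis is cyp-14A4.

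The comparison of tissues asks which genes carry polymerase in one tissue and not the other. In wild type, 57 of the 74 P450 genes (77.0%) had a lower score in intestine than in hypodermis and 17 a higher one, beside 64.1% lower among all genes. The median difference, intestine minus hypodermis, was -0.08 over the P450 genes and -0.02 over all genes. After quantile normalization of the groups the P450 genes split into 44 lower (59.5%) and 30 higher, beside 42.1% lower among all genes. After centring each group on its median, 49 (66.2%) were lower, beside 46.0%. The size of the excess thus depended on the scaling, and its direction did not under these 2 scalings.

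A difference over 1 on the log2 scale, which is over 2-fold, was counted among genes called expressed in at least 1 of the groups compared. Of 11 such P450 genes in wild type, 2 were lower in intestine, cyp-13A10 at -1.18 and cyp-29A2 at -1.13, beside 7.63% of all expressed genes. None was higher, beside 3.96%. Both genes stood close to the threshold, and the next were cyp-33C3 and cyp-43A1, both at -0.87, and cyp-32A1 at -0.73. At a smaller difference of 0.58, called or not, 8 P450 genes were lower in intestine and 0 higher, beside 4.45% and 1.84% of all genes. Besides the 5 just named these include cyp-34A1 at -0.64, cyp-33C7 at -0.61 and cyp-29A4 at -0.60.

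In the mutant 51 P450 genes (68.9%) were lower in intestine and 23 higher, beside 56.3% lower among all genes, with a median of -0.06 against -0.01. Of 6 expressed P450 genes, 0 were lower by more than 1 (9.53% of all) and 0 higher (3.02%). The largest differences were -0.88 for cyp-34A6, -0.60 for cyp-29A2, -0.56 for cyp-32A1 and -0.53 for cyp-43A1. The 10 genes called in wild-type hypodermis can be followed in the mutant strains, which the call did not use. There 9 of the 10 were lower in intestine than in hypodermis, with a median of -0.22, and cyp-13A10 was the exception. The same count over all genes called in wild-type hypodermis was not made. The 9 of 10 therefore cannot be called particular to P450 genes. In wild type itself all 10 were lower, by a median of -0.66, which the call on the hypodermal score favours.

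**Figure D3:**
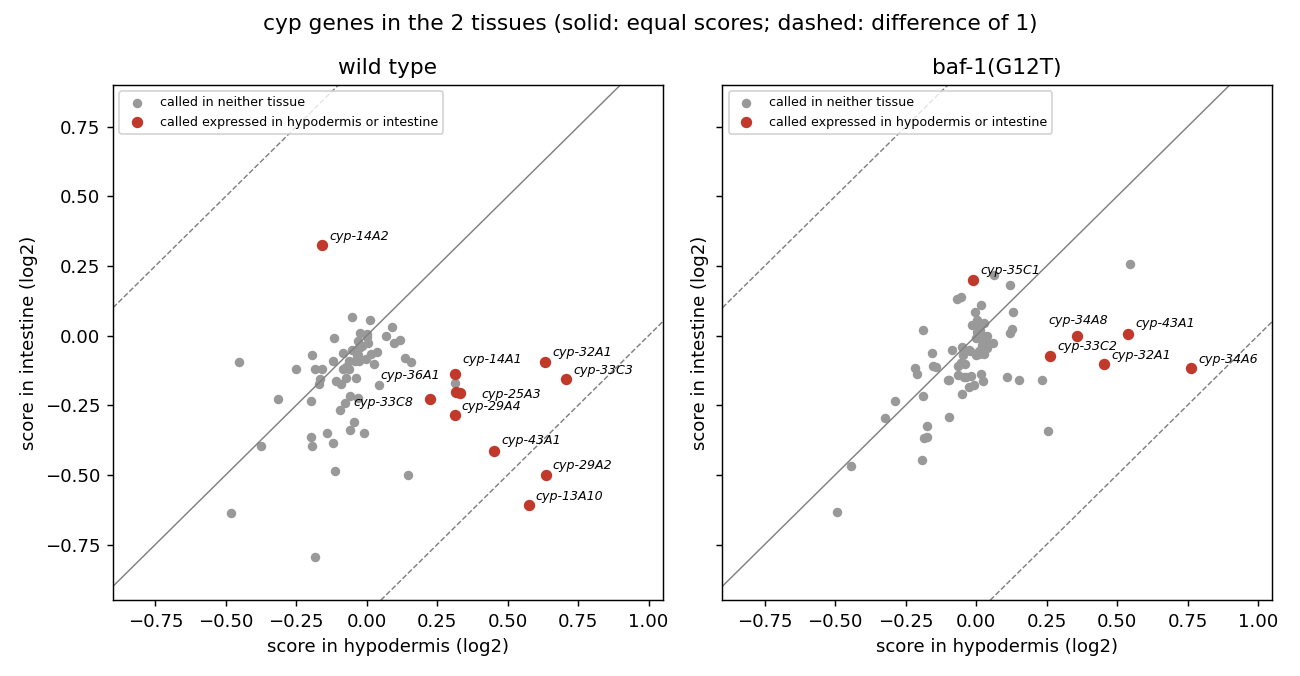
Intestinal against hypodermal score (both log2) of the 74 P450 genes in wild type (left) and baf-1(G12T) (right); red points were called expressed in hypodermis or intestine of that genotype, the solid line marks equal scores and dashed lines a difference of 1. In wild type cyp-13A10 and cyp-29A2 lie beyond the lower dashed line, and in the mutant no gene does.

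Genes with a higher score in intestine differed less. In wild type the largest such differences were 0.48 for cyp-14A2 and 0.36 for cyp-44A1, which belongs to the mitochondrial class of P450s and scored -0.45 in hypodermis and -0.09 in intestine. cyp-33E3, cyp-34A10 and cyp-13A2 followed at 0.13, 0.13 and 0.12. In the mutant none exceeded 0.21, the value of both cyp-35C1 and cyp-35D1. Apart from cyp-14A2 and cyp-35C1, none of these genes was called expressed in any group.

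The comparison of genotypes asks where baf-1(G12T) alters polymerase. No P450 gene passed a difference of 1 in either tissue. In hypodermis 13 P450 genes were expressed in at least 1 genotype, with 0 higher (7.65% of all expressed genes) and 0 lower (3.30%). In intestine 2 were expressed, with 0 higher (2.87%) and 0 lower (2.87%). These comparisons share their groups with the tissue comparisons above.

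Over all 74 genes the hypodermal scores were higher in the mutant for 40 and lower for 34, with a median change of 0.02, the same as the 0.02 of all genes. After centring, the median became -0.0044, so no direction can be given for the family. In intestine 57 (77.0%) were higher in the mutant and 17 lower, beside 66.7% higher among all genes, with a median of 0.05 against 0.03. This split also depended on the scaling, with 39 higher (52.7%, beside 43.6% of all genes) after centring and 27 higher (36.5%, beside 38.8%) after quantile normalization, when the median became -0.03.

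Single genes moved further than the family. In hypodermis the largest rise in the mutant was 0.83 for cyp-34A6, followed by 0.42 for cyp-34A5, 0.38 for cyp-33C2, 0.29 for cyp-13A1 and 0.27 for cyp-34A10. The falls were -0.72 for cyp-33C3, -0.51 for cyp-13A10, -0.42 for cyp-36A1, -0.38 for cyp-29A2 and -0.33 for cyp-34A1. The cyp-34A subfamily gave 3 of the 5 largest rises. Its 8 members had a median change of 0.18, with 5 higher and 3 lower, beside 60.3% higher among all genes. The 3 genes with these rises lie in the same array, and cyp-34A5 and cyp-34A6 share a GATC fragment.

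In intestine the largest rise was 0.83 for cyp-13A10, from -0.61 to 0.22. It was followed by cyp-35C1 with 0.54, cyp-14A4 with 0.43, cyp-35D1 with 0.42 and cyp-43A1 with 0.42. cyp-35D1 scored -0.19 in both hypodermis groups, -0.40 in wild-type intestine and 0.02 in mutant intestine. The largest fall was -0.62 for cyp-14A2, followed by cyp-13A2 with -0.22, cyp-13A8 with -0.13, and cyp-33E3 and cyp-13B2 with -0.08 and -0.07. Of the rises, cyp-13A10, cyp-35D1, cyp-43A1 and cyp-35C1 all began from a wild-type intestinal score of -0.34 or lower, and cyp-14A4 from -0.17. Picking the largest rises itself favours a low wild-type score.

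**Figure D4:**
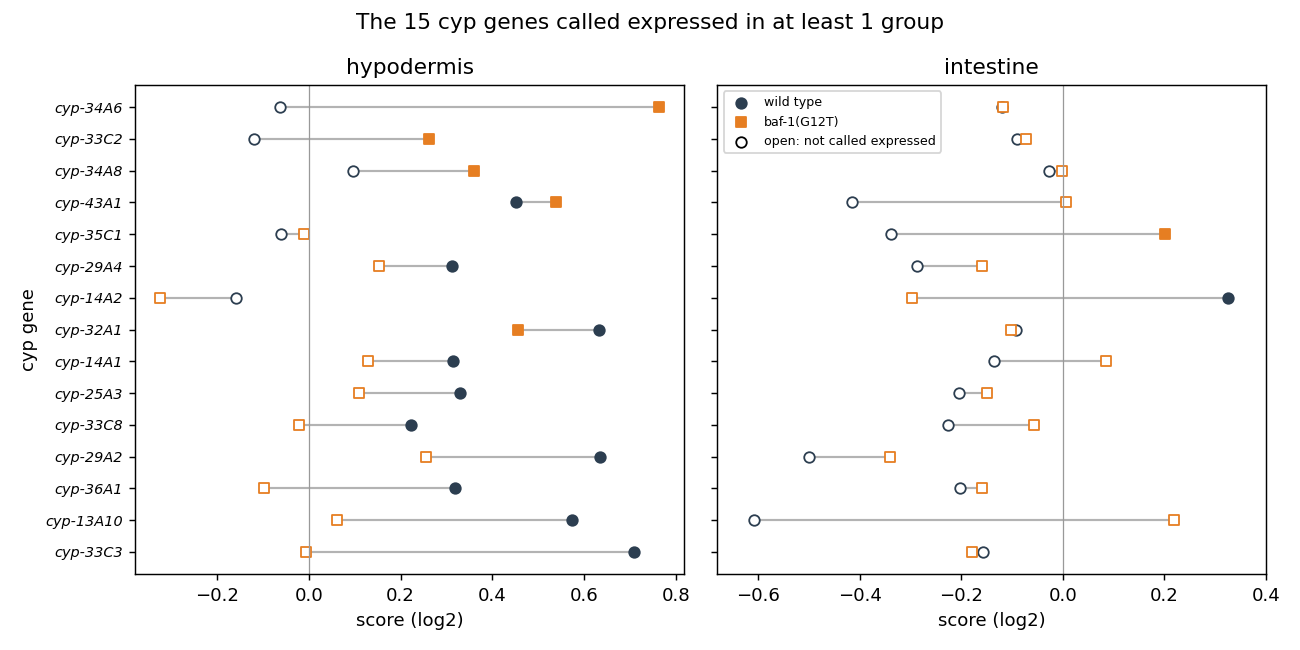
Score (log2) of the 15 P450 genes called expressed in at least 1 group, in wild type (circles) and baf-1(G12T) (squares), in hypodermis (left) and intestine (right); filled symbols were called expressed and genes are ordered by the hypodermal change. The hypodermal changes run from -0.72 for cyp-33C3 to 0.83 for cyp-34A6, and the longest intestinal line is that of cyp-13A10.

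The calls were spread over several subfamilies. Against 15 of 74 for the whole family, cyp-33C had 3 of 11 called, cyp-29A 2 of 3, cyp-14A 2 of 5 and cyp-34A 2 of 8, and cyp-13A had 1 of 11. Counts this small do not show that subfamilies differ. Members were also called in cyp-25A (1 of 5) and in the single-gene subfamilies cyp-32A, cyp-35C, cyp-36A and cyp-43A. cyp-13A was lower in intestine than in hypodermis in 10 of 11 members in wild type and in 8 of 11 in the mutant, with medians of -0.15 and -0.06. The shares lower were 77.0% and 68.9% over all P450 genes and 64.1% and 56.3% over all genes. The cyp-13A count was not repeated after rescaling, and 8 of its members lie in a single array. The lowest cyp-13A member, cyp-13A4, was far below 0 everywhere, with -0.48, -0.49, -0.64 and -0.63 in wild-type hypodermis, mutant hypodermis, wild-type intestine and mutant intestine. In the cyp-33C subfamily cyp-33C7 was similarly low, with -0.18, -0.45, -0.80 and -0.47.

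None of the 5 cyp-25A genes was higher in mutant than in wild-type hypodermis (median change -0.06), which held under both rescalings. As deposited, 38.8% of all genes were lower. The change of cyp-25A6 was only -0.00016 over 2 fragments, and cyp-25A1, cyp-25A2 and cyp-25A3 lie in the same array. In intestine all 5 were higher in the mutant as deposited (median change 0.04), but 2 after centring and 1 after quantile normalization. The changes were small beside those named above. Reads from these genes can be hard to place. Of all 30-base words in cyp-25A6, 63.7% also occur in cyp-25A3, and cyp-25A1, cyp-25A2 and cyp-25A3 share 19.1% to 21.4% of theirs with each other. Of the words of cyp-33C3, 17.4% occur in cyp-33C4. The treatment of reads with more than 1 matching place is not stated in the sources consulted.

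The cyp-35 family, whose members in worms are induced by many foreign compounds, had 1 called gene. None of the 5 cyp-35A genes, which are known for their effect on intestinal fat storage, was called. cyp-35A2 had the widest range of these, with -0.06, 0.12, -0.09 and 0.18, whereas cyp-35A3 (0.01, -0.00, 0.06 and 0.08) and cyp-35A4 (-0.03, -0.04, -0.09 and -0.10) stayed near 0. cyp-35A1 scored -0.17, -0.06, -0.16 and -0.11, and cyp-35A5 -0.06, -0.04, -0.22 and -0.15. cyp-35B1, a target of the insulin pathway factor DAF-16, scored -0.11, 0.02, -0.16 and -0.16. Of the 10 genes of the family only cyp-35C1 was called. Beside this, 20.3% of all P450 genes and 23.9% of all genes were called in at least 1 group. A count this small does not show that the family differs. cyp-35A3 has 4 GATC fragments, and cyp-35A1, cyp-35A2 and cyp-35A4 have 5 each.

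Of the members named for roles outside detoxification, only cyp-36A1 was called. Beside this, 20.3% of all P450 genes and 23.9% of all genes were called in at least 1 group. So few genes do not show that these members were called less often. cyp-33E2, which like cyp-29A3 makes eicosanoids, scored -0.31, -0.21, -0.23 and -0.14. cyp-13A12, which oxidises polyunsaturated fatty acids in the response to reoxygenation, scored -0.09, -0.05, -0.17 and -0.10. cyp-31A2 and cyp-31A3, required for the lipid layer of the eggshell, scored -0.03, -0.19, -0.22 and -0.22, and -0.38, -0.18, -0.40 and -0.32. The scores of these 4 genes were below 0 in every group. cyp-37A1 lay between -0.18 and 0.04 and cyp-42A1 between -0.02 and 0.01.

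P450 genes lie in arrays, and the scores could be compared along them. With gaps of at most 10 kb between neighbours, 44 genes form 12 arrays and 30 stand alone. The longest runs from cyp-35A5 to cyp-34A10 on chromosome V (10 genes, chrV:3936326-3972991) and the next from cyp-13A1 to cyp-13A8 on chromosome II (8 genes, chrII:9779181-9807569). In the longest, cyp-34A6 and cyp-34A8 were called in mutant hypodermis and the other 8 genes in no group. In the cyp-13A array none of the 8 was called.

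The highest genes of the arrays can be set beside their direct neighbours, as a description, since a high score chose them. cyp-33C5 begins 138 bp after cyp-33C3 and scored lower by 0.85 in wild-type hypodermis. cyp-34A7 lies 345 bp from cyp-34A6 and scored 0.00 in mutant hypodermis against 0.76. On the other side cyp-34A5, 451 bp away, scored 0.23 there (FDR = 0.0578). cyp-14A1 and cyp-14A2 are 206 bp apart, and their order differed between groups. cyp-14A2 was lower than cyp-14A1 by 0.47 in wild-type hypodermis, by 0.45 in mutant hypodermis and by 0.38 in mutant intestine, and higher by 0.46 in wild-type intestine.

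Of the 32 neighbouring pairs within arrays, 11 have no GATC site between the genes and so share a fragment, the 4 pairs just given among them. The largest difference over the 4 groups had a median of 0.40 in these 11 pairs and 0.33 in the other 21. Of the 10 genes called in wild-type hypodermis, 9 scored higher than every adjacent or overlapping gene there, and 7 had no called gene beside them. The call itself favours this: of the 1916 protein-coding genes called in that group, 1417 scored above all such neighbours and 1072 (55.9%) had no called one. The exception among the P450 genes was cyp-29A2, beside T19B10.2.

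**Figure D5:**
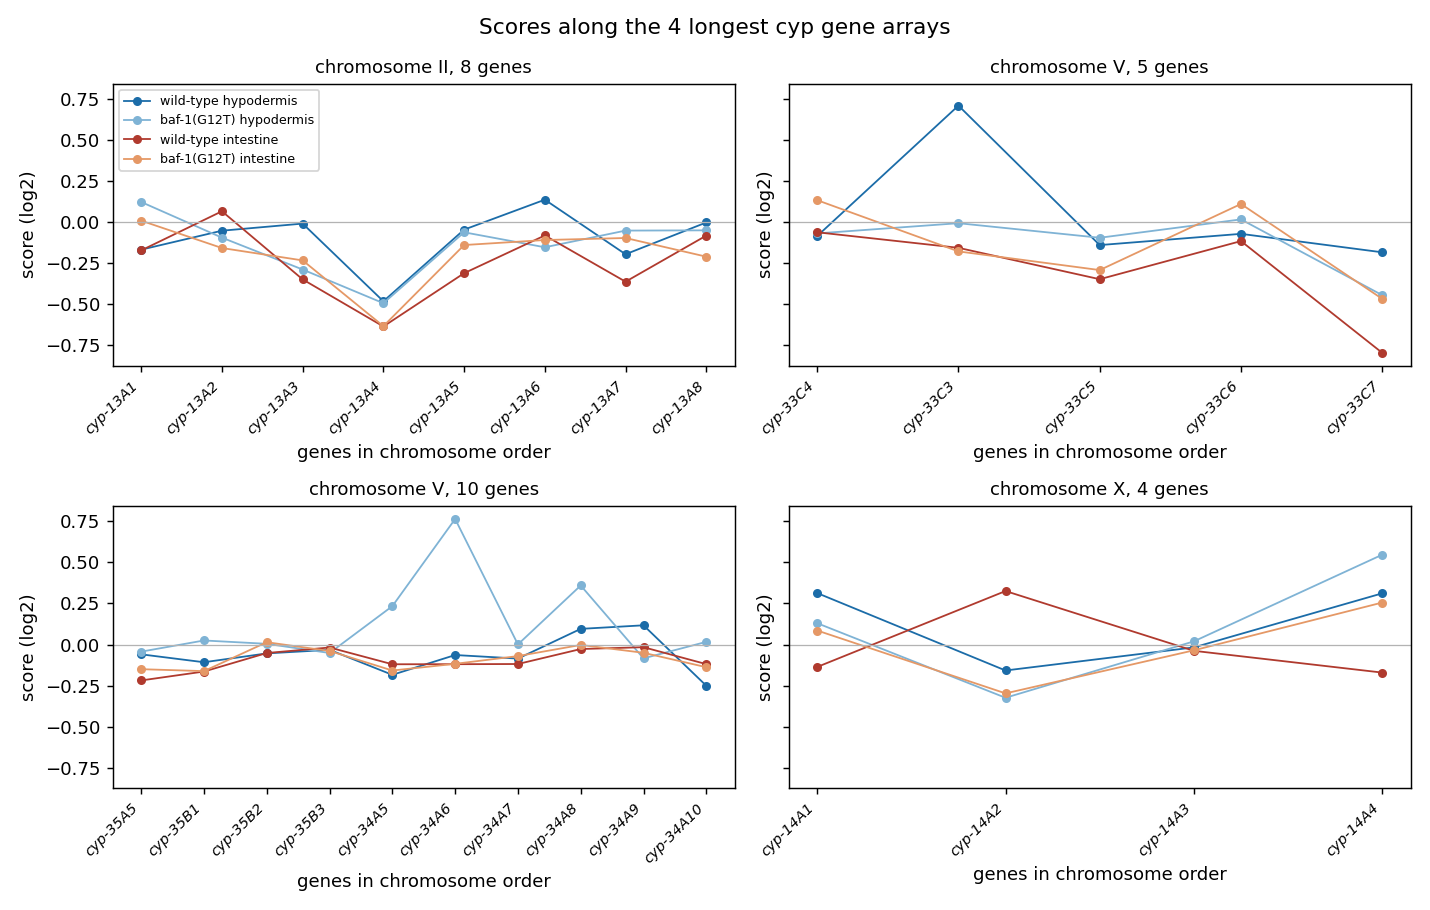
Scores (log2) of the P450 genes in their chromosome order along the 4 arrays of at least 4 genes, with 1 line for each group. The peaks are cyp-33C3 in wild-type hypodermis (0.71) and cyp-34A6 in mutant hypodermis (0.76), and the cyp-13A array holds no called gene.

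The sequence before each gene start was searched for TGATAA, on either strand, the core of the site bound by the GATA factors that act in worm intestine and hypodermis. A match in the 250 bases before the start was found in 27 of the 74 P450 genes (36.5%), beside 26.8% of 19973 protein-coding genes. The cyp-35 family held 8 of these matches among its 10 genes (80.0%), against 19 of the 64 other P450 genes (29.7%). Among the 15 genes called in any group 4 had a match (26.7%), so the called genes were at the share of the genome. The sequences below, read from the RefSeq genome of assembly WBcel235, are written 5′ to 3′ toward the gene with matches in capitals (TGATAA or its reverse complement TTATCA). They show members of the family with the most matches and a gene with matches that was called in hypodermis of both genotypes. The last are genes without a match that were called in wild-type hypodermis alone.
cyp-35C1 upstream, chrV:13898488-13898737 (minus strand): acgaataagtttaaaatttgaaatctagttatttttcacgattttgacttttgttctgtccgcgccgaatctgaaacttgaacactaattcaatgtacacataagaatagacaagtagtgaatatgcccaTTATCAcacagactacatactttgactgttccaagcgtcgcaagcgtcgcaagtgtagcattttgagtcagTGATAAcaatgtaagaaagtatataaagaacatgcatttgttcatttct
cyp-35D1 upstream, chrV:16068988-16069237 (plus strand): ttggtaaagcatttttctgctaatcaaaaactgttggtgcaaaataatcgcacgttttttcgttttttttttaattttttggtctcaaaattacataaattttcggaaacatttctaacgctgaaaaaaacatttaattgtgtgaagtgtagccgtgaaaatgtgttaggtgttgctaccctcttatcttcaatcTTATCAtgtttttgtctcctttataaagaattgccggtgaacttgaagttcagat
cyp-43A1 upstream, chrX:5714272-5714521 (plus strand): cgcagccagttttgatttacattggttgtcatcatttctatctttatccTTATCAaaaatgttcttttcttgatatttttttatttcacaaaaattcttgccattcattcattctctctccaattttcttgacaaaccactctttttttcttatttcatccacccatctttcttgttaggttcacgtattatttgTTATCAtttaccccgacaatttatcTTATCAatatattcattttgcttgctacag
cyp-29A2 upstream, chrV:11217333-11217582 (plus strand): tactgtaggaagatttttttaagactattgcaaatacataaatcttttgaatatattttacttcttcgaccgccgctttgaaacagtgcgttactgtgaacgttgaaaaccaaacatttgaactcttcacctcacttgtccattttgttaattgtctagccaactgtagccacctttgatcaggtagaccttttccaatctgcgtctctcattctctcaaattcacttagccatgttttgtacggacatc
cyp-13A10 upstream, chrII:9662885-9663134 (minus strand): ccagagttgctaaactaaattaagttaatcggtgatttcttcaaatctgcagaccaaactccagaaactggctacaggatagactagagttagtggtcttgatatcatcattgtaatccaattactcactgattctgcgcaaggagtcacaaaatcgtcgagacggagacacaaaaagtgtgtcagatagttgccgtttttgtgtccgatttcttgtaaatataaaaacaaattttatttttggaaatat

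cyp-35C1 has 2 matches and cyp-35D1 1, and they were the cyp-35 genes with the largest intestinal rises in the mutant (0.54 and 0.42). cyp-35A2 and cyp-35B2 also have 2 matches each and changed by 0.27 and 0.07. With 1 match each, cyp-35A1, cyp-35A3, cyp-35A4 and cyp-35A5 changed by 0.05, 0.03, -0.01 and 0.07. The members without a match, cyp-35B1 and cyp-35B3, changed by 0.00 and -0.02. A link between matches and change was not tested. cyp-43A1 has 3 matches and was called in hypodermis of both genotypes. cyp-29A2 and cyp-13A10, the genes past a difference of 1 between wild-type tissues, have none in this window. A match is a string of letters and not a measured binding site.

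Genes that work with P450s were measured alongside. emb-8 encodes the NADPH-P450 reductase that passes electrons to P450 enzymes. It scored 0.44 in wild-type hypodermis, 0.63 in mutant hypodermis, 1.37 in wild-type intestine and 0.63 in mutant intestine, and was called in all 4 groups. Its wild-type intestinal score was thus the highest, whereas in the mutant it scored 0.63 in both tissues. In each intestine 1 P450 gene was called. emb-8 has 24 GATC fragments, beside a P450 median of 8, so its calls are not directly comparable with theirs. cytb-5.1, which encodes a cytochrome b5, scored -0.13, 1.42, -0.78 and -0.10. It was called in mutant hypodermis alone, 1.55 above wild type. cytb-5.2 scored 0.53, -0.18, 0.24 and 0.34 over 3 fragments and was called in wild-type hypodermis and mutant intestine.

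daf-9 encodes a steroid hydroxylase of the P450 class that is not named cyp-, and makes the hormone ligands of the receptor DAF-12. It scored 0.30 in wild-type hypodermis (FDR = 0.0121), -0.07 in mutant hypodermis, -0.17 in wild-type intestine and -0.12 in mutant intestine. Like 8 of the cyp genes it was called in wild-type hypodermis alone. The other 4 genes of the hormone pathway, daf-36, dhs-16, hsd-1 and strm-1, were called in no group and stayed between -0.15 and 0.04.

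Of 12 receptors and factors known for control of detoxification or lipid genes, 5 were called in wild-type hypodermis, 5 in mutant hypodermis, 4 in wild-type intestine and 6 in mutant intestine. The cofactor gene mdt-15 (0.57, 0.70, 0.54 and 0.67) and the oxidative stress factor gene skn-1 (0.53, 0.42, 0.48 and 0.22) were called in every group. pqm-1, which encodes a stress factor of the gut, was called in both intestines, with -0.67, -0.26, 0.43 and 0.56. The nuclear receptor gene nhr-48 scored 0.15, 1.15, -0.20 and -0.06 and was the one regulator to pass a difference of 1 between genotypes, by 1.00 in hypodermis. Regulator genes were thus called in both intestines, where 1 P450 gene each was called. Of all genes, 7.94% and 10.5% were called in wild-type and mutant intestine. The regulators called there have 40 (skn-1), 26 (mdt-15), 23 (nhr-49), 16 (hif-1), 15 (nhr-86) and 8 (pqm-1) GATC fragments. The P450 median is 8, and genes with more fragments were called more often, so the counts are not directly comparable.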

How the data were processed

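Reads carrying the DamID adapter were mapped by the authors to GATC sites of the worm genome (ce11 per the submitters' processing notes), Dam::RPB-6 was normalized to GFP::Dam with damidseq_pipeline, and gene values come from polii.gene.call with WBCel235 genes. The deposited score is on the log2 scale. The deposited FDR, a q-value for transcription, was used as given, as was the authors' number of GATC fragments per gene. The step that combined the 2 replicates is not stated in the sources consulted.

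From the 4 tables, 11 of 19985 rows without a gene name were left out. Members were taken by name. The members, marker and pathway lists were chosen with earlier results of these data known. Genes named are those called in any group, the 5 largest rises and falls of each comparison, the 3 highest and lowest scores of each group and members of known role. ZK1320.3, ZK1320.5, T19B10.2, sptl-3, C41G11.1, figo-1 and members named as array neighbours were added after their values were seen. Called genes had an FDR under 0.05, and differences over 1 were counted among genes called in at least 1 group compared. With 1 value per group, no test was made. The counting of genes past these thresholds was checked on simulated data. Positions come from Ensembl release 115 (WBcel235), and the numbers of GATC sites in the gene spans, plus 1, equalled the deposited fragment numbers for all 74 genes. Protein features were not analysed here. Alternatives were FDR thresholds of 0.01 and 0.1, differences of 0.58 and 1.5, no requirement of expression, at least 4 fragments, median centring, quantile normalization and leaving out members that overlap other genes. Comparisons of shared 30-base words, flanking genes and families, and the calls of all genes at each FDR threshold, were added after seeing the data. Python 3.11.15, numpy 2.4.6, pandas 2.3.3 and matplotlib 3.10.9 were used.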

Additional observations from a re-analysis of the deposited data

Results flagged for a closer look

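The change between genotypes of cyp-13A10 went in opposite directions in the 2 tissues. The mutant score was lower than the wild-type score by 0.51 in hypodermis and higher by 0.83 in intestine, so the intestinal change exceeded the hypodermal one by 1.34 on the log2 scale. The difference was not tested, since each group has 1 value, and it rests on 5 GATC fragments.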

How the results depend on the processing

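No paired analysis was possible because the tables hold 1 combined value per gene and group, and leaving out a replicate could not be run for the same reason. Of 68 alternatives to the counts and medians, 54 left the value within its margin, 12 moved it and 2 reversed it. At an FDR of 0.01 the genes called were 2 in mutant hypodermis and 0 in each intestine, and at 0.1 they were 8 in mutant hypodermis, 2 in wild-type intestine and 7 in mutant intestine. Of all genes, 4.77%, 4.18% and 5.40% were called at 0.01 in these 3 groups and 9.56%, 11.8% and 15.1% at 0.1. At a difference of 0.58 the genes past the fold rule were 6 between wild-type tissues, 1 between mutant tissues, 2 between genotypes in hypodermis and 1 in intestine. Between wild-type tissues there were 0 at 1.5 and, after quantile normalization, 1 (cyp-13A10 at -1.01, with cyp-29A2 at -0.99). The median genotype change became -0.0044 in hypodermis after centring and -0.034 in intestine after quantile normalization. The centring itself moved the medians of the comparisons by less than 0.1. Depth per gene is unknown, and genes with few GATC fragments could rarely be called.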
